A study of Homo sapiens with 4 samples.

Results

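*GDF15*, *STC2*, *ADM2* and *TF* encode secreted proteins and were chosen by gene symbol from the authors' deposited comparison of K562 cells treated with TRIAC against control cells. They are 4 of the 143 genes of that comparison. Every gene of the table has an adjusted p under 0.05 in the authors' comparison, so a difference between the groups was the condition for a gene to be listed, and the values of the 4 genes are a description without a test. K562 is an established human erythroleukemia cell line that makes embryonic and fetal globins. Both groups received 10 µM hemin, which drives erythroid differentiation of this line, and were kept for 48 h with 20 µM TRIAC, a thyroid hormone metabolite (2 libraries), or with DMSO, its solvent (2 libraries). The table gives 1 expression value per group, with no value per library, so no SD was available. The sources used here do not say whether a group's libraries were separate cultures. Of 20 erythroid markers, 12 are in the table, each of them higher with TRIAC. Of all 143 genes, 61 were higher, and the marker list was chosen with earlier results of these data known. The 12 markers had a summed expression value of 38606 with DMSO and 181863 with TRIAC. The globin gene *HBG2*, named after its values were seen, gave 25809 and 114251 of these sums. The others, *GATA1* among them, are not in the table and were not analysed here.

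*GDF15* is a distant member of the TGF-β family that cells release under mitochondrial and endoplasmic reticulum stress, and that acts on a receptor in the hindbrain to reduce food intake. Maturing erythroblasts also secrete it. *STC2* encodes stanniocalcin 2, a glycoprotein hormone that is induced in the unfolded protein response and binds the protease PAPP-A. *ADM2*, also called intermedin, is a peptide of the calcitonin family that signals through the calcitonin receptor-like receptor. Transcription of all of these stress hormones is known to respond to ATF4, the transcription factor that cells translate when amino acids run short or proteins misfold. *TF* encodes transferrin, the iron carrier of plasma, made mainly by the liver. Erythroid cells take up iron-loaded transferrin through the transferrin receptor to supply heme synthesis, and in culture they obtain it from serum.

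On GRCh38, *GDF15* (NCBI Gene 9518) lies on chromosome 19 from 18386158 to 18389176, and its canonical GENCODE transcript has 2 exons and 308 codons. *STC2* (8614) lies on chromosome 5 from 173314723 to 173328414, with 4 exons and 302 codons. *ADM2* (79924) lies on chromosome 22 from 50481543 to 50486437, with 3 exons and 148 codons. *TF* (7018) lies on chromosome 3, where RefSeq starts the gene at 133661998 and the canonical GENCODE transcript runs from 133746393 to 133796641, with 17 exons and 698 codons. The 130 bases before each transcript start are shown because these genes were all lower with TRIAC, and matches to the motifs searched are in capitals. The sequences are from RefSeq (GRCh38.p14), 5′ to 3′ on the strand of the gene, at chr19:18386028-18386157 (plus strand), chr5:173328415-173328544 (minus strand), chr22:50481413-50481542 (plus strand) and chr3:133746263-133746392 (plus strand).
GDF15: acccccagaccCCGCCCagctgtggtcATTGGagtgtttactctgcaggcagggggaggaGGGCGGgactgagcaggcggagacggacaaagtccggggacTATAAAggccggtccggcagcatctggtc
STC2: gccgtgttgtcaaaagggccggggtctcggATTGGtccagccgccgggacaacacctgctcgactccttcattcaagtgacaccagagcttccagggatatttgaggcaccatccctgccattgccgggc
ADM2: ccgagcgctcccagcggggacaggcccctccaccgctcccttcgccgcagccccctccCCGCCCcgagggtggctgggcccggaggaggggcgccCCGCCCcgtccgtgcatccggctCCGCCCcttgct
TF: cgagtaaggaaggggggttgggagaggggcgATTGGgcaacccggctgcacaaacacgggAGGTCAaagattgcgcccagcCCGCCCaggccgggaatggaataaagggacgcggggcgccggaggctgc

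Near the transcript start, 3 of the 4 genes held the CCAAT box, the motif of the factor NF-Y, in the reverse orientation, where it reads ATTGG. Its first base was 103 bases before the start in *GDF15*, 100 in *STC2* and 99 in *TF*. No CCAAT box was in the window of *ADM2*. The motif was on either strand in 34.6% of 35116 RefSeq windows of the same length (250 bases before to 50 after a start). Per gene, it was in 54.0% of the 63 lower and 33.3% of the 36 higher genes of the table that have a window. A gene was counted if any of its windows held the motif, and these 99 genes have 161 windows. The shares of genes are therefore not comparable with the share of windows. A reverse CCAAT box with its first base between 110 and 90 bases before the start was in 2.30% of the 35116 windows. On either strand, a CCAAT box between these limits was in 4.68%. The limits and the strand were chosen after these positions were seen, so these shares do not measure how unusual the 3 genes are. *GDF15* alone had a TATA box (TATAAA, 11.5% of windows), 29 bases before the start. The GC box (GGGCGG, 45.0% of windows) was present in *GDF15*, in *TF* and, 3 times, in *ADM2*, whose 130 bases held 80.8% G and C against 60.0% in *STC2*. *TF* also had an AGGTCA, the core motif of thyroid hormone receptors and other nuclear receptors, 70 bases before the start; 13.8% of all windows hold it. None of the 4 windows held TGATGNAAN, a form of the C/EBP-ATF response element bound by ATF4 (3.61% of windows), nor the cyclic AMP response element TGACGTCA (1.85%), nor the E-box CACGTG (7.26%), nor the GATA motif NGATAA (22.7%). Of the 63 lower and 36 higher genes with a window, 44 and 25 held the GC box and 13 and 10 the TATA box. AGGTCA was in 13 and 3, the GATA motif in 17 and 17, and the E-box in 5 and 4. The cyclic AMP response element was in 1 and 0, and the C/EBP-ATF response element in 14 and 0. These differences were not tested. The search covered both strands, a match is not a bound site, and sites outside these windows were not searched.

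**Figure D1:**
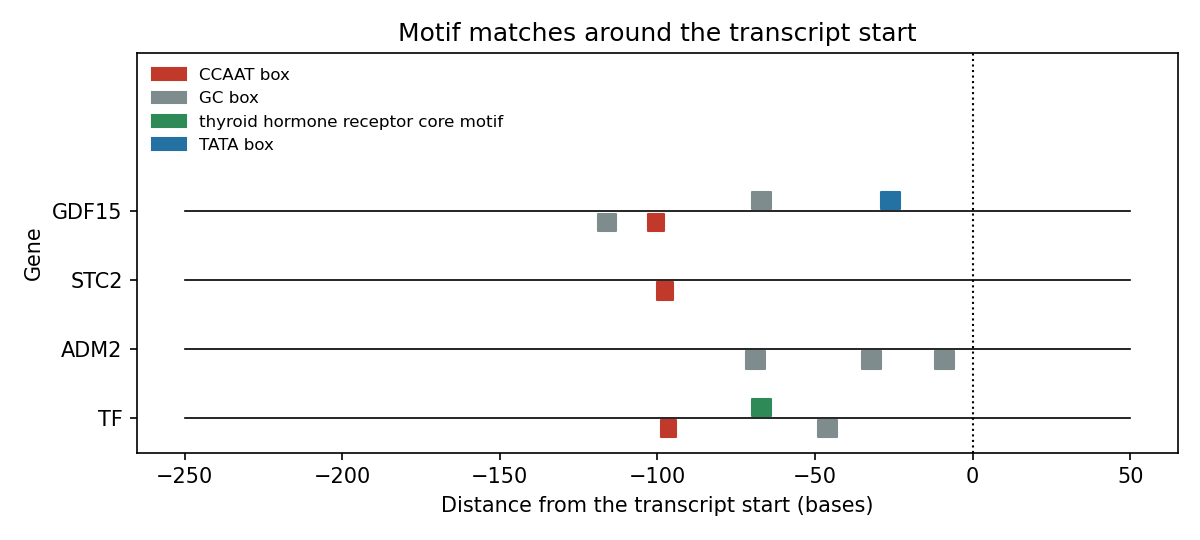
Motif matches (colored blocks) around the transcript start of the 4 genes (vertical axis) against the distance from that start in bases (horizontal axis, start at the dotted line); blocks above a line lie on the strand of the gene and blocks below it on the other strand. The red CCAAT boxes of *GDF15*, *STC2* and *TF* lie between 103 and 95 bases before the start, and *ADM2* has none.

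The expression values were lower in TRIAC-treated cells for all 4 genes. *GDF15* had an expression value of 3163 with DMSO and 383 with TRIAC, 8.26 times lower, a log2 ratio of -3.05. *STC2* went from 632 to 60.9, 10.4 times lower (log2 ratio -3.38). *ADM2* went from 285 to 10.6, 27.0 times lower (log2 ratio -4.75), and kept 3.71% of its control value, the lowest share of the 4 genes. *TF* went from 195 to 21.6, 9.02 times lower (log2 ratio -3.17). The 3 genes other than *ADM2* lay close together, at 9.63% to 12.1% of the control value. The log2 ratio of *ADM2* was below that of *STC2* by 1.38 and that of *GDF15* by 1.71, and its difference from that of *TF* was -1.58. No replicate error was available for these differences. The value of *ADM2* in TRIAC-treated cells was low, and with a pseudocount of 10 in both groups its log2 ratio was -3.84. In the summed expression values of the 4 genes, 4274 with DMSO and 476 with TRIAC, *GDF15* accounted for most of the difference, with a difference of -2780 against -571 for *STC2*, -274 for *ADM2* and -173 for *TF*.

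**Figure D2:**
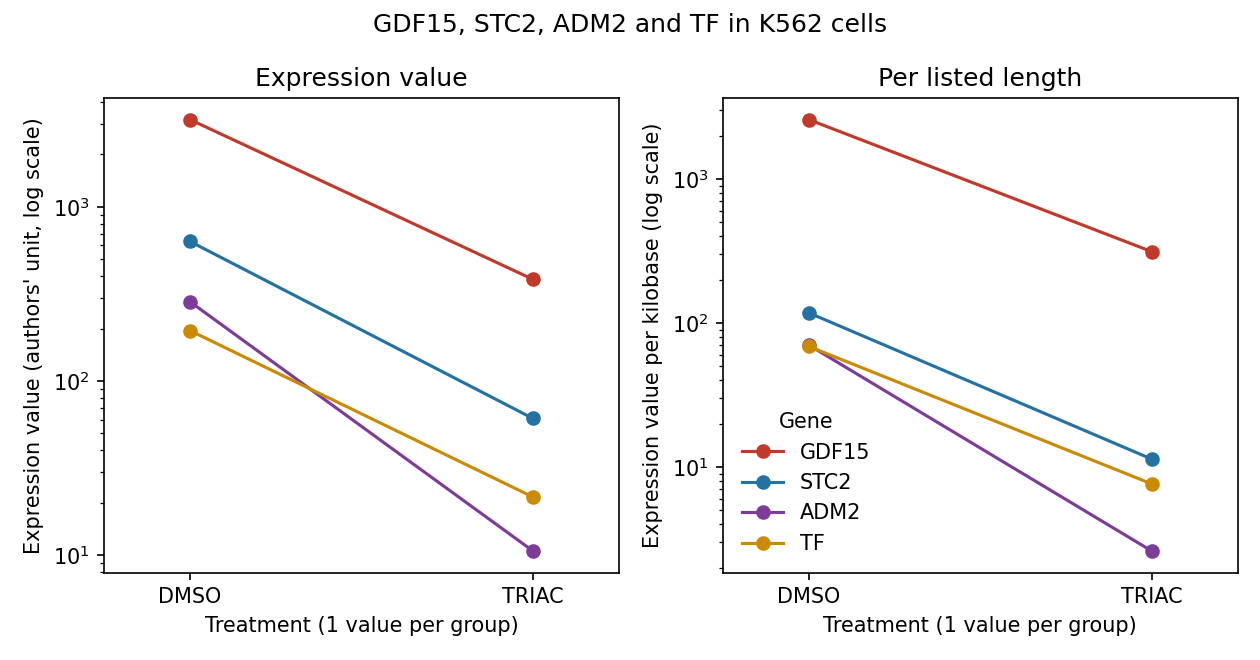
Expression values of the 4 genes in DMSO-treated and TRIAC-treated K562 cells (left, vertical axis in the authors' unit, log scale) and the same divided by the listed gene length in kilobases (right, log scale); each point is the authors' 1 value per group, with no error, and lines join the values of a gene. All 4 lines run downward. With TRIAC *ADM2* lies below *TF*, at 10.6 against 21.6 (left) and at 2.61 against 7.64 per kilobase (right).

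All 4 genes passed a fold of 8, a limit chosen after their values were seen. Of 140 genes listed above 0 with DMSO and with TRIAC, 33 were lower by at least this fold, which is 23.6%. At least 4 times lower were 43.6% of the 140 genes and at least 2 times lower 57.1%. The smallest absolute log2 ratio of the 140 genes was 1.45, so every lower gene passed a fold of 2. The 57.1% is therefore the share of lower genes. Since the genes were picked from the listed ones, these shares only place them in the table. Among the 80 lower genes with values above 0 in both groups, counted from the lowest log2 ratio, *ADM2* was number 6, *STC2* 28, *TF* 32 and *GDF15* 33. The median log2 ratio was -3.27 over the 4 genes and -2.58 over the 80 lower genes. The genes were also set against lower genes of equal or higher abundance. Of 50 other lower genes with a control value at or above that of *ADM2*, 1 had a lower log2 ratio, and of 34 such genes for *STC2*, 3 had. For *GDF15* it was 3 of 11, and for *TF* 13 of 57.

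**Figure D3:**
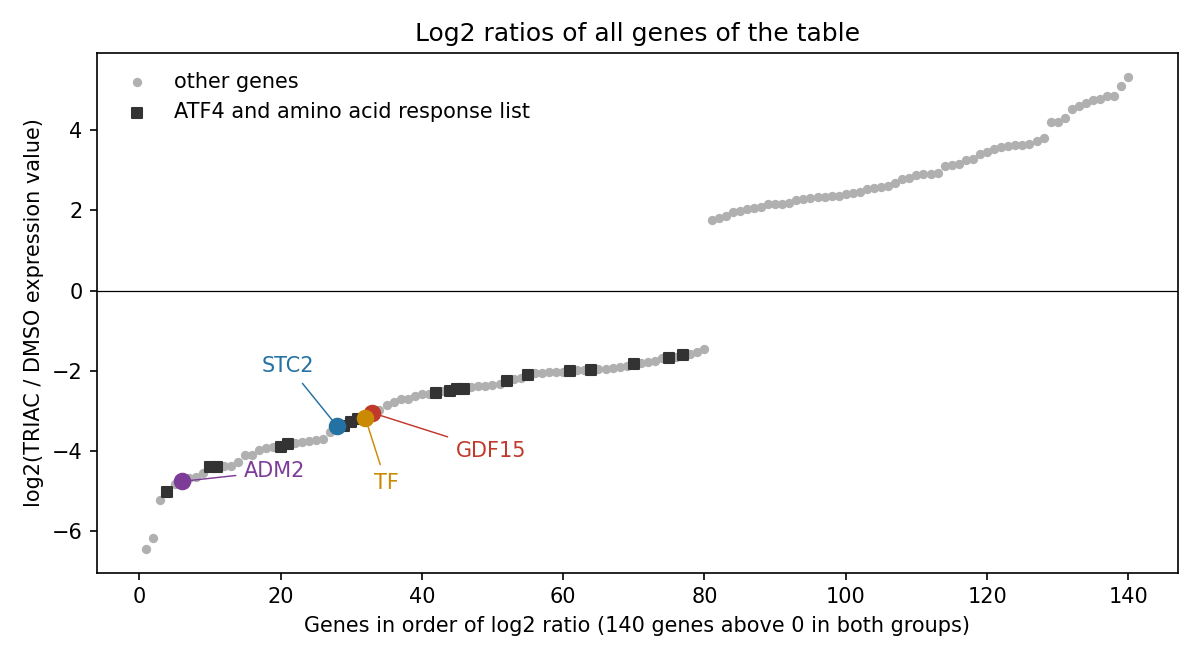
Log2 ratio of the TRIAC to the DMSO expression value (vertical axis) for the 140 genes listed above 0 with both treatments, in ascending order (horizontal axis). Colored points are the 4 secreted proteins, black squares the 19 listed genes of the ATF4 and amino acid response and gray points the other genes; *ADM2* lies at -4.75 and the other three between -3.38 and -3.05.

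Levels were compared between genes per listed length. In control cells *GDF15* had the highest level per kilobase of the 4 genes, 2592, followed by *STC2* with 118, *ADM2* with 70.5 and *TF* with 68.9. *GDF15* made up 91.0% of the sum of the 4 levels per kilobase and ranked 9 from the top of the 143 genes. The levels of *ADM2* and *TF* differed by a factor of 1.02, and with 200 bases taken off each length their order turned (74.13 for *ADM2*, 74.19 for *TF*). In TRIAC-treated cells the levels per kilobase were 314 for *GDF15*, 11.4 for *STC2*, 7.64 for *TF* and 2.61 for *ADM2*. The excess of *GDF15* over *STC2* was 22.0 times in control cells and 27.6 times in TRIAC-treated cells, and its excess over *ADM2* went from 36.8 to 120 times. Per kilobase of coding sequence, a length set after the data were seen, *GDF15* again had the highest level, but its excess with DMSO was 4.90 times over *STC2* and 5.33 times over *ADM2*, and its share of the sum was 70.5%. On this scale *ADM2* stood above *TF* in both groups, by 6.91 times with DMSO and 2.31 times with TRIAC. The order of these 2 genes thus depended on the length used. Coding and listed lengths are 444 and 4045 bases for *ADM2* and 906 and 5361 for *STC2*. They are 924 and 1220 for *GDF15* and 2094 and 2823 for *TF*. The expression values are not said to cover coding sequence only, so this scale raises genes with long untranslated parts. By expression value, counted from the highest of the 143 genes, *GDF15* was at place 15 with DMSO and 47 with TRIAC. *STC2* was at 41 and 102, *ADM2* at 63 and 121, and *TF* at 73 and 116.

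These levels depend on which transcripts the listed lengths stand for. The listed length of *GDF15*, 1220 bases, is close to the 1200 bases of its canonical GENCODE transcript, as are the 4045 bases of *ADM2* to 4213. *STC2* is listed with 5361 bases against 4254. *TF* is listed with 2823 bases, while its canonical GENCODE transcript has 20166. The ratios between the groups do not use the length. Other genes overlap these loci, and the sources used here do not say whether counting used strand. *SBF1*, on the opposite strand, shares 131 exonic bases with *ADM2*, 3.11% of its canonical transcript, and the lncRNA ENSG00000291042 and *SRPRB*, on the same strand, share 191 and 122 bases with *TF*. The microRNA gene *MIR3189* lies within *GDF15*, outside its exons.

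By distance over both group values on the log2 scale, the genes closest to *GDF15* were *ATF5* and *TRIB3*, regulators of the stress response, and *PSAT1*, an enzyme of serine synthesis. *ATF3*, a transcription factor induced by stress, was closest to *STC2*, at 710 with DMSO and 69.0 with TRIAC, against 632 and 60.9, followed by *AKNA* and *GPT2*. The closest to *ADM2* were *UNC5B* (306 and 12.2), *ASS1*, the argininosuccinate synthase, and *NUPR1*, a stress-induced nuclear protein. Among those closest to *TF* were *MILR1* and *ALDH2*, a mitochondrial aldehyde dehydrogenase, with *MILR1* at 162 and 20.4. Of the 3 genes closest to *GDF15*, 3 belong to the ATF4 and amino acid response list, and 1 each of those closest to *STC2* (*ATF3*) and *ADM2* (*NUPR1*, the farthest of its 3). The list makes up 19 of the 80 lower genes, 23.8%, and neither *MILR1* nor *ALDH2* is on it. The measure rests on 2 values per gene and so on abundance. Of 11 other lower genes with a control value at or above that of *GDF15*, 9 are on the list. The 23.8% is therefore not a fair measure for the genes closest to *GDF15*.

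Of 50 other genes of the ATF4 and amino acid response, 19 have a row. All 19 were lower with TRIAC, with a median log2 ratio of -2.50. Of all 143 genes, 82, or 57.3%, were lower, and the median over the 80 lower genes above 0 in both groups was -2.58. The list was chosen with earlier results of these data known. The 6 lowest were *NUPR1* (-5.01), *DDIT4*, an inhibitor of mTORC1 (-4.40), *PHGDH*, the first enzyme of serine synthesis (-4.38), *JDP2* (-3.89), *ALDH1L2*, a mitochondrial folate enzyme (-3.83), and *ATF3* (-3.36). *ADM2* lay below 18 of these 19 genes, *STC2* below 14, and *GDF15* and *TF* below 11 each. In control cells the 19 genes had expression values from 93.1 to 6692, with a median of 2614. Of the 4 secreted proteins only *GDF15* lay above this median. These values are not divided by length, so they do not compare levels between genes. Of 22 genes of the endoplasmic reticulum unfolded protein response, 1 has a row, *HERPUD1*, a factor of protein degradation at the endoplasmic reticulum, with a log2 ratio of -1.98. None of 17 p53 targets has a row. Genes of these lists that have no row were not analysed here, and nothing was measured of them.

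Around *TF*, none of 36 genes of iron uptake, storage and export has a row, the transferrin receptor *TFRC* and the ferritins *FTH1* and *FTL* among them, and they were not analysed here. Of 14 genes of heme synthesis, the pathway that uses the iron brought by transferrin, 2 have a row and both were higher. *ALAS2*, the erythroid enzyme of its first step, went from 19.8 to 360.0 (log2 ratio 4.19), and *UROS* from 107 to 456 (log2 ratio 2.09), while *TF* went from 195 to 21.6. Among the 3 genes for which the table names cellular iron ion homeostasis, *TF* was the lower one, and *ALAS2* and *GDF2* were higher. None of 19 hepatocyte markers, 8 oligodendrocyte markers or 6 Sertoli cell markers has a row. These cell types are known to make transferrin, and the levels of their markers were not analysed here.

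Of 18 genes that the table places in the extracellular space or region, 10 were lower and 8 were higher, near the share of the whole table, in which 82 of 143 genes, 57.3%, were lower. *GDF15*, *STC2* and *ADM2*, chosen with earlier results known, are among the 10 lower ones. *TF* is not among the 18, since the table's terms for it include the extracellular exosome and blood microparticles instead. Of 40 other genes of the families of these proteins, 2 have a row, *INHBC* and *GDF2*, and of 49 other secreted signals 1 has, *VEGFA*. These 3 went both ways. *VEGFA*, the angiogenic growth factor, went from 2737 to 853 (log2 ratio -1.68), and *INHBC*, an inhibin and activin subunit, from 29.1 to a listed 0. *GDF2*, which encodes BMP9 and belongs to the TGF-β family like *GDF15* and *INHBC*, went from 21.9 to 188, a log2 ratio of 3.10. The 3 genes with the term hormone activity, *STC2*, *ADM2* and *INHBC*, were all lower. Since 2 of them are among the 4 chosen genes, this count says nothing about hormones in general. *STC2* is also the lower 1 of the 7 genes with the term heme binding, of which the other 6 are globins and were higher. Of 18 receptors and binding partners of the 4 proteins, such as *CALCRL*, *GFRAL*, *PAPPA* and *TFR2*, none has a row, and they were not analysed here.

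The lists of other lineages and of thyroid hormone action held few listed genes. Of 11 macrophage and monocyte markers, 3 have a row, *FCGR2A* (log2 ratio -4.10), *SPI1* (-2.18) and *CD68* (-1.94). Summed over these 3, expression was 1986 with DMSO and 379 with TRIAC, lower like the 4 genes, and their part in the result was not tested. Defining markers such as *CD14* and *LYZ* have no row. Of 10 megakaryocyte markers, *TUBB1* was higher (log2 ratio 4.76), and of 21 thyroid hormone receptors and target genes, *DBP*, a circadian transcription factor, was higher, from 56.7 to 278. In bulk RNA, fewer cells that make a transcript and less of it per cell cannot be told apart.

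**Figure D4:**
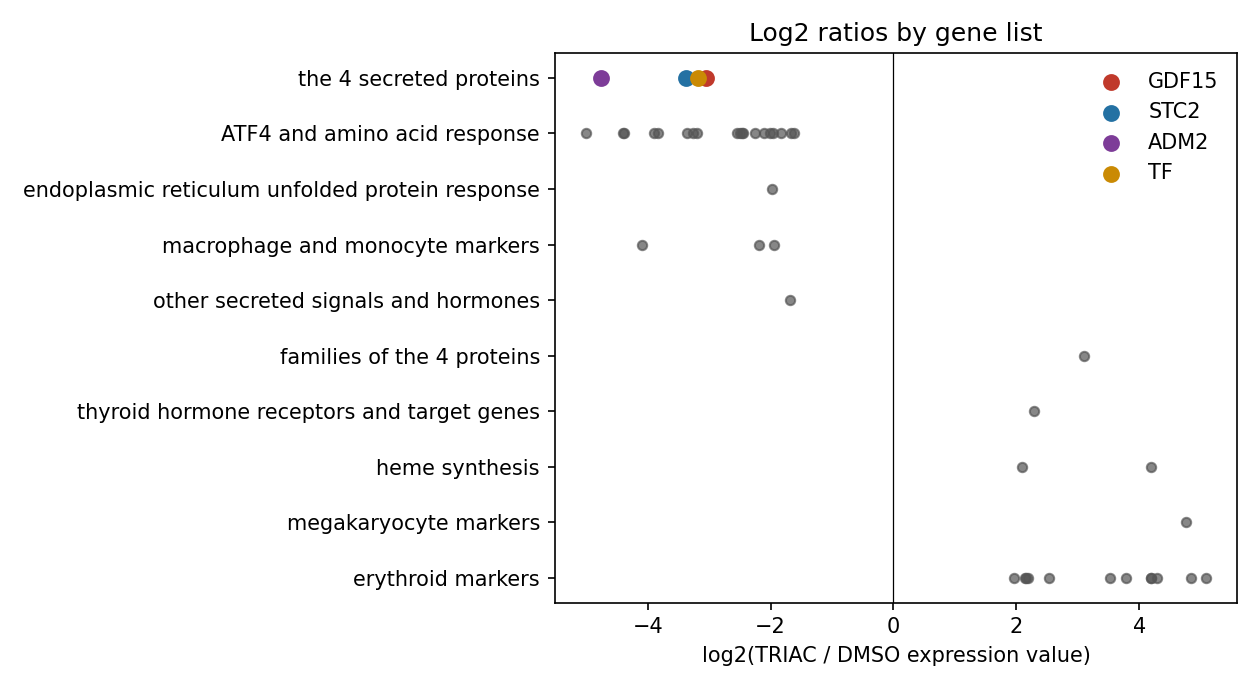
Log2 ratio of the TRIAC to the DMSO expression value (horizontal axis) for the 4 secreted proteins (colored) and for the genes of 9 lists that have a row and values above 0 in both groups (gray), 1 list per line (vertical axis). The genes of the 4 proteins lie between -4.75 and -3.05. The 19 genes of the ATF4 and amino acid response lie between -5.01 and -1.61, with 11 of them above all 4. The 12 erythroid markers lie between 1.96 and 5.09.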

How the data were processed

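The study's RNA-seq of K562 cells comprises 2 libraries with DMSO and 2 with TRIAC. According to the submitters' processing notes, RSEM and Bowtie2 were used with edgeR on GRCh38, with CASAVA 1.8, FastQC and Trimmomatic, the order and roles not being given. The series design instead gives Cufflinks, TopHat and BWA. Which set the values came from is unknown. The deposited table, as the authors made it, has 1 expression signal value per group and a length per gene. The unit of the signal is not named; the same low value occurs for genes of different lengths (1 such value with DMSO, 3 with TRIAC), so it was not read as divided by length. The columns of the authors' comparison (log2 fold change, p and adjusted p) were not used beyond checking that each adjusted p is under 0.05, so the log2 ratios given here are those of the expression values. Depth per library is unknown.

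Log2 ratios without a pseudocount, ranks, levels per kilobase and counts over 15 gene lists (341 entries: ATF4 and amino acid response, unfolded protein response, iron, heme synthesis, receptors, protein families, other secreted signals, p53 targets, thyroid hormone targets, and markers of erythroid cells, megakaryocytes, macrophages, hepatocytes, oligodendrocytes and Sertoli cells) were computed, with no test. The 4 genes and the lists were chosen with earlier results of these data known. Named genes are the 4 genes, the 3 closest to each by Euclidean distance of log2(value + 1), and up to 6 per list with the largest absolute log2 ratio; a gene named by this rule is not reported here. All 143 gene identifiers matched the RefSeq gene table (GRCh38.p14); 99 genes have a promoter window. GENCODE 44 gave transcripts. The calculations were made with pandas 2.3.3 and numpy 2.4.6 in Python 3.11.15. Of these, the log2 ratio and its direction were tested on simulated data first. Figures were drawn with matplotlib 3.10.9. No sample column was left unmatched.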

Additional observations from a re-analysis of the deposited data

How the results depend on the processing

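No paired analysis was possible because the table holds 1 value per group, and for the same reason no replicate could be left out. A value was counted as moved when it changed by more than 1.5 times. All 4 log2 ratios kept their sign under each alternative. For the pseudocounts this was fixed in advance, since the same number added to both groups cannot change the sign. Centring on the median log2 ratio of the table (-1.82) gave -1.23 for *GDF15*, -1.56 for *STC2*, -2.94 for *ADM2* and -1.36 for *TF*; this median is set by the listing of 80 lower and 60 higher genes. A pseudocount of 10 gave -3.84 for *ADM2* and moved *STC2* from place 28 to 12 and *GDF15* from 33 to 16 among the lower genes. Per coding length, an alternative added after the data were examined in place of the planned RefSeq protein table, which was not used, *STC2* was at 698 with DMSO and 67.2 with TRIAC, and *ADM2* at 642 and 23.8, so that *ADM2* stood above *TF* in both groups (92.9 and 10.3). The expression values are not said to cover coding sequence only, so the coding scale raises genes with long untranslated parts. At a fold of 8, also added later, 33 genes were lower and 27 higher. Of 52 alternative values, 39 moved by less than the limit and 13 by more.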

Other observations

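The C/EBP-ATF response element TGATGNAAN, absent from the windows of *GDF15*, *STC2*, *ADM2* and *TF*, occurred in other genes of the table. Of 63 lower genes with a RefSeq promoter window, 14 held it, and of 36 higher genes 0 did, against 3.61% of all 35116 windows. These 99 genes have 161 windows, and a gene was counted if any of its windows held the element. The counts of genes are therefore not comparable with the share of windows. Of the 14 genes, 6 belong to the ATF4 and amino acid response list, namely *ASNS*, *ATF3*, *CARS*, *JDP2*, *MARS* and *SLC1A4*, out of 17 genes of that list with a row and a window. The others are *DLGAP1-AS2*, *HERPUD1*, *IL20RB*, *IL21R*, *KLHDC7B*, *SASH1*, *TMEM154* and *ULBP2*. This was looked at after the values were seen and was not tested.

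*ADM2* has a neighbor in the table at 0.0595 Mb, *KLHDC7B*, with a log2 ratio of -3.97, which was also chosen after its value was seen. The nearest listed genes to *GDF15*, *STC2* and *TF* lie 2.55 to 3.16 Mb away.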
